A study of Danio rerio with 3 samples.

Results

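The V-type proton pump and lysosomal proteins are described here by 43 genes, measured by 68 probes, of the 15548 named genes (23717 probes) on the array. Members were chosen by symbol in the probe annotation: every symbol beginning with atp6v, atp6ap, lamp or laptm, and 23 further lysosomal names, of which 8 (gba, hexa, hexb, gaa, naga, npc2, scarb2 and gns) matched no probe. Of the 43 genes, 23 belong to the pump and 20 to the rest of the lysosome, and the cathepsins were left out.

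The samples were whole zebrafish embryos of strain AB at 48 hours post fertilization, kept at 28 degrees C. Knockdown embryos received 7.5 ng of a morpholino (MO, an antisense oligomer) against slc2a10 and were sorted for a recognizable Class 1 phenotype, and 3 replicates of 10 to 15 embryos were made. Control embryos received 5 ng of a control MO, and their RNA samples were pooled into 1, so no spread between control embryos was measured. Each of 3 two-colour arrays set 1 slc2a10 MO replicate against that pool, with the dyes swapped on replicate 2. Slc2a10 encodes GLUT10, a member of the facilitative glucose transporter family. Dose and sorting differed together with the target, and in whole embryos fewer cells of a type and less RNA per cell cannot be told apart.

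The slc2a10 MO is shown because it defines the comparison. Capitals mark the stretch complementary to GTAAGT, the common form of a splice donor. It was searched for and found 1 time in this oligomer and 0 times in the control MO. Only the exact stretch was searched for, and the control MO holds all of it but the first base.
slc2a10 MO: caaataaagtccACTTACttggt
control MO: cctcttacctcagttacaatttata
The MO lies at the splice donor of exon 2, and such an oligomer acts on splicing, so the amount of slc2a10 transcript need not change.

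The V-type ATPase is a rotary pump of 2 sectors. The cytosolic V1 sector (subunits A to H) hydrolyses ATP, and the membrane V0 sector (subunits a, c, c″, d and e) carries protons into lysosomes, endosomes, secretory granules and synaptic vesicles. The low pH it makes is needed by the lysosomal hydrolases that break down lipids, glycans and proteins. In zebrafish the pump is also abundant in skin ionocytes and is needed by the large vacuole of notochord cells, a lysosome-related organelle.

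Values are log2 ratios between the channels, as means ± SD over the 3 arrays (n = 3 throughout). No source used here says which channel stands on top of the deposited ratio, so signs are relative to slc2a10: positive values lie on the slc2a10 side, negative ones on the opposite side. The title of each array names its Cy3 sample first, but does not say which channel was divided by which. Read as Cy3 over Cy5, genes on the slc2a10 side were higher in slc2a10 MO embryos, and read as Cy5 over Cy3 they were higher in control embryos. As deposited, replicate 2 correlated at -0.65 and -0.69 with the others, and its sign was turned on the reading that ratios run by dye. If instead the submitters had aligned the ratios by sample, a strong dye bias could give these correlations, which was not tested. A gene is called at an adjusted p under 0.05 by limma over all named genes. Slc2a10 itself, on 1 probe, had 0.50, 0.42 and 0.47 across replicates 1, 2 and 3 (mean 0.46 ± 0.04, limma adjusted p = 0.0008). All 3 arrays gave this gene nearly the same value.

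Pump genes lay mostly on the slc2a10 side, while the remaining lysosomal genes had more means below 0 than above and few calls. On the slc2a10 side 13 of the 23 pump genes were called and on the opposite side 1, where 11.1% and 8.16% of all named genes were called. Their median ratio was 0.22, against 0.01 for all named genes. Of the 20 other lysosomal genes, 1 (5%) was called on the slc2a10 side and 3 (15%) opposite, with a median of -0.08. Without psap, 2 of 19 (10.5%) were called opposite, near the 8.16% of all named genes. The difference between the pump and the other lysosomal genes was not tested. By sign alone, 21 of 23 pump genes had a mean above 0, as did 8147 of all 15548 named genes. Of all 23 pump genes 17 were above 0 on every array, as were 27.2% of all named genes. Of the other lysosomal genes, 13 of 20 had a mean below 0, as did 7401 of all 15548 named genes. Of all 20, 9 were below 0 on every array, as were 22.9% of all named genes. The sizes were small: 1 member on each side was called and reached 1.5-fold, atp6v0cb and psap, as 1.30% and 0.611% of all named genes did.

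Which arrays were used moved these counts. On replicates 1 and 3 alike the slc2a10 MO sample carried Cy3, so without replicate 2 dye and knockdown cannot be told apart. Without replicate 2 the pump had 7 calls on the slc2a10 side and 1 opposite, and the other lysosomal genes 1 and 2, where 6.31% and 3.70% of all named genes were called. Without replicate 1 the counts were 11 and 1 for the pump and 2 and 5 for the others, beside 10.6% and 10.1% of all named genes. Without replicate 3 they were 12 and 1, and 1 and 3, beside 9.70% and 6.55%. With dye orientation as a term 11 and 4 members were called (8.05% and 6.23% of all named genes), with array weights 18 and 8 (17.5% and 16.0%) and with robust eBayes 14 and 4 (11.1% and 8.17%). On every single array the pump median was above 0 (0.25, 0.21 and 0.17) and that of the other lysosomal genes below 0 (-0.03, -0.06 and -0.12).

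**Figure D1:**
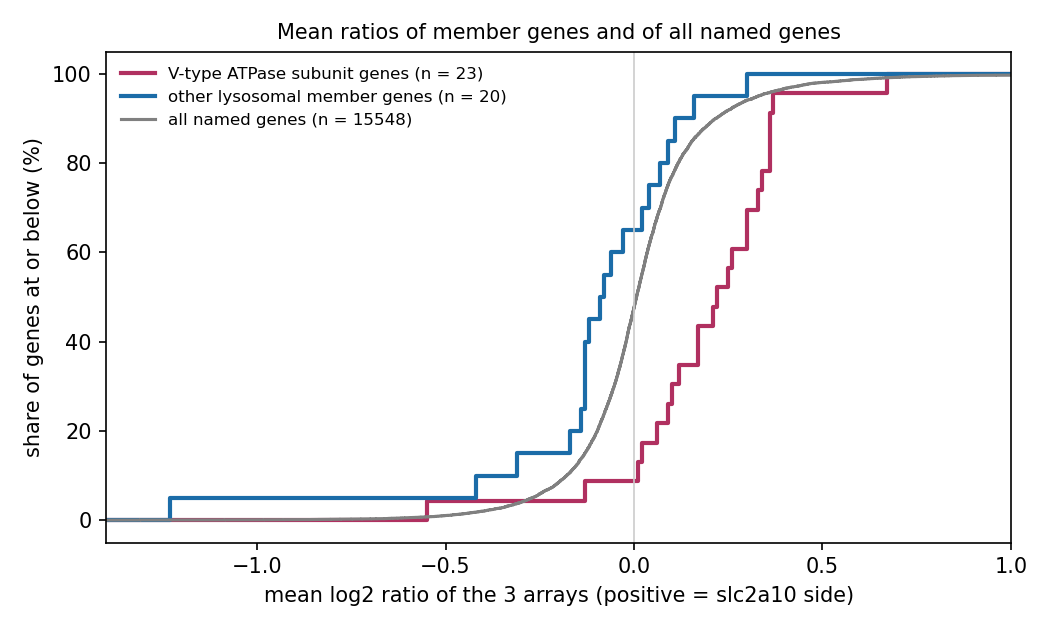
Share of genes (%) whose mean log2 ratio over the 3 arrays is at or below the value on the horizontal axis, for the 23 pump genes, the 20 other lysosomal genes and all 15548 named genes. The pump curve lies to the right of that of all named genes over most of its range, with medians of 0.22 and 0.01, and the curve of the other lysosomal genes lies to the left, with a median of -0.08.

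All 12 genes of the V1 sector had means above 0, between 0.01 and 0.37. Limma called 7 of them with slc2a10 and 0 opposite, where 11.1% and 8.16% of all named genes were called. At an unadjusted p under 0.05 the V1 counts were 10 and 0. On the slc2a10 and opposite side 17.4% and 14.0% of all named genes reached that. The 7 belong to 7 of the 8 subunits. Subunit A, which holds the catalytic site, is encoded by atp6v1aa with 0.43, 0.38 and 0.32 (mean 0.37 ± 0.06, 1.3-fold, adjusted p = 0.0023). Subunit B, its partner in the hexamer head, is encoded by atp6v1b2 with 0.44, 0.37 and 0.28 (mean 0.36 ± 0.08, adjusted p = 0.0031). Both stood clear of 0 on every array, and each rested on 2 probes that were called singly. The rotor subunit F gene atp6v1f gave 0.29, 0.30 and 0.43 (mean 0.34 ± 0.08, adjusted p = 0.0042). The stator subunit G gene atp6v1g1 gave 0.29, 0.31 and 0.39 (mean 0.33 ± 0.05, adjusted p = 0.004). These 4 genes kept their call without each replicate in turn.

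The other 3 called V1 genes had smaller means, and none of the 3 was called once replicate 2, the array with swapped dyes, was left out. The stator gene atp6v1e1b gave 0.36, 0.31 and 0.22 (mean 0.30 ± 0.07, adjusted p = 0.007). Atp6v1h, whose subunit H takes part in regulating the assembled pump, gave 0.24, 0.21 and 0.28 (mean 0.25 ± 0.04, adjusted p = 0.013). The rotor shaft gene atp6v1d gave 0.13, 0.24 and 0.26 (mean 0.21 ± 0.07, adjusted p = 0.029). Without replicate 2 they had 0.29 (adjusted p = 0.054), 0.26 (adjusted p = 0.075) and 0.19 (adjusted p = 0.21), so their means hardly moved. Without replicate 3 atp6v1d was not called either (0.18, adjusted p = 0.11). The number of V1 genes called was 4 without replicate 2 and 6 or 7 without either of the others.

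Subunit C, which detaches when the pump disassembles, was the V1 subunit with no called gene. Its genes atp6v1c1b (0.26, 0.17 and 0.08) and atp6v1c1a (0.29, 0.10 and 0.11) both averaged 0.17 and were above 0 on every array, but missed the threshold (adjusted p = 0.076 and 0.09). The third gene, atp6v1c2, had 0.02 ± 0.04. Among the paralogs of the head subunits, atp6v1ba had 0.12 ± 0.05 and atp6v1ab 0.01 ± 0.11, neither called. The mean of atp6v1ab was below 0 without replicate 1 (-0.043).

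**Figure D2:**
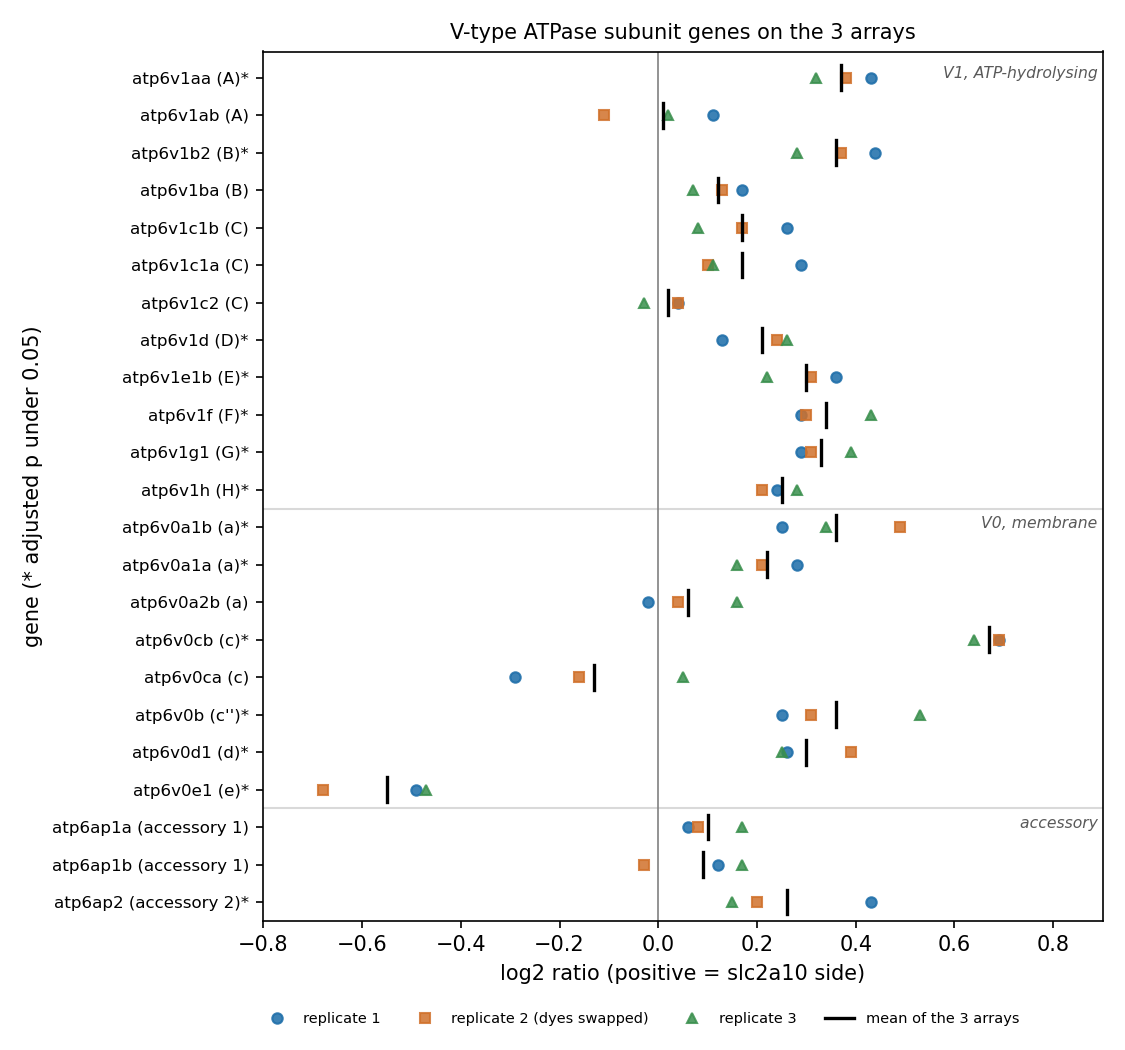
Log2 ratio of each pump gene (rows, with the subunit letter in brackets) on each of the 3 arrays (points) and their mean (black bar), the slc2a10 side to the right of 0 and an asterisk on called genes. Atp6v0e1 lies between -0.68 and -0.47, apart from all other pump genes shown, and atp6v0cb lies highest at 0.64 to 0.69.

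The V0 sector had 5 of its 8 genes called with slc2a10 and 1 opposite, where 11.1% and 8.16% of all named genes were called. The highest value of any member was that of atp6v0cb, which encodes the proteolipid subunit c that forms the proton-carrying ring. It gave 0.69, 0.69 and 0.64 (mean 0.67 ± 0.03, 1.6-fold, adjusted p = 0.00015) and ranked 135 of 15548 from the slc2a10 end. Its 3 probes were close together, at 0.65, 0.66 and 0.72. The second ring proteolipid, subunit c″, is encoded by atp6v0b, with 0.25, 0.31 and 0.53 (mean 0.36 ± 0.15, 1.29-fold, adjusted p = 0.0068). It was highest on replicate 3, and all 3 values were above 0.

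Subunit a holds the half-channels through which protons pass and anchors V1 to the membrane. Its gene atp6v0a1b gave 0.25, 0.49 and 0.34 (mean 0.36 ± 0.12, adjusted p = 0.0053), and its paralog atp6v0a1a gave 0.28, 0.21 and 0.16 (mean 0.22 ± 0.06, adjusted p = 0.025). In mammals the a1 isoform is enriched in neurons. The gene of another isoform, atp6v0a2b, had 0.06 ± 0.09 and was not called. The gene of subunit d, atp6v0d1, which couples the rotor to the ring, gave 0.26, 0.39 and 0.25 (mean 0.30 ± 0.08, adjusted p = 0.0069). Without replicate 2 atp6v0d1 had 0.26 (adjusted p = 0.079) and atp6v0a1a 0.22 (adjusted p = 0.15), and atp6v0a1a had 0.18 without replicate 1 (adjusted p = 0.057), none of them called. Atp6v0a1b, atp6v0b and atp6v0cb kept theirs without each replicate in turn.

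Among the members, 1 pump gene was called opposite, atp6v0e1, which encodes the small membrane subunit e. It gave -0.49, -0.68 and -0.47 (mean -0.55 ± 0.12, 1.46-fold, adjusted p = 0.0008), ranked 120 of 15548 from the opposite end, and was called without each replicate in turn. Its range did not overlap that of any other pump gene among the members. Tcirg1b, a pump gene outside the rule, did overlap it (-0.34, -0.71 and -0.64). The value of atp6v0e1 rests on 1 probe. The other measured subunit e gene, atpv0e2, is spelled without the prefix that the rule used and was added after its values were seen. It lay on the slc2a10 side with 0.91, 0.71 and 0.53 (mean 0.72 ± 0.19, 1.64-fold, adjusted p = 0.00061, 1 probe), above atp6v0cb, and was called without each replicate in turn. Subunit e thus had a called gene on each side of 0, and their values did not overlap on any array. The second subunit c gene, atp6v0ca, had -0.29, -0.16 and 0.05 (mean -0.13 ± 0.17, adjusted p = 0.26), so it was the other member pump gene with a mean below 0.

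The 3 accessory subunit genes had a median of 0.10, against 0.23 for the V1 and 0.26 for the V0 genes. Limma called 1 of the 3 on the slc2a10 side and 0 opposite, where 11.1% and 8.16% of all named genes were called. Atp6ap2, the prorenin receptor, which helps assemble the pump, gave 0.43, 0.20 and 0.15 (mean 0.26 ± 0.15, adjusted p = 0.028). Replicate 1 was the highest, and the call was lost without it (0.18, adjusted p = 0.068) and without replicate 2 (0.29, adjusted p = 0.074). The genes of the other accessory subunit had 0.10 ± 0.06 (atp6ap1a) and 0.09 ± 0.11 (atp6ap1b), neither called. The 2 probes of atp6ap1b lay at 0.31 and -0.13, so its average hides a disagreement.

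Among the lysosomal genes outside the pump, psap stood far from the rest. It encodes prosaposin, which is cut into the saposins that hand sphingolipids to their hydrolases. It gave -1.38, -1.24 and -1.06 (mean -1.23 ± 0.16, 2.34-fold, adjusted p = 3.9e-05) and ranked 12 of 15548 from the opposite end. Its 3 probes had means of -1.28, -1.24 and -1.16. The next largest was man2b1, the lysosomal alpha-mannosidase that trims glycoproteins, with -0.48, -0.39 and -0.38 (mean -0.42 ± 0.05, 1.33-fold, adjusted p = 0.0014). Both genes were below 0 on every array and kept their calls without each replicate in turn.

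The 4 other member genes of sphingolipid and glycolipid breakdown were not called. Outside the symbol rule, named after their values were seen, the galactosylceramidase gene galcb (-0.57, -0.35 and -0.33, mean -0.42 ± 0.13, adjusted p = 0.0032), its paralog galca (-0.21 ± 0.12, adjusted p = 0.046) and the acid sphingomyelinase gene smpd1 (-0.27 ± 0.08, adjusted p = 0.011) were called opposite. Of all named genes 8.16% were called opposite. Arsa (0.03 ± 0.05), asah2 (0.03 ± 0.05), gba2 (-0.01 ± 0.09) and gba3 (-0.22 ± 0.18, adjusted p = 0.066), chosen in the same way, were not called. Without replicate 2 galca had -0.14 (adjusted p = 0.4) and smpd1 -0.23 (adjusted p = 0.13), and without replicate 3 galca had -0.24 (adjusted p = 0.054), none of them called. The beta-galactosidase gene glb1 was below 0 on every array (-0.09, -0.31 and -0.10), with a mean of -0.17 ± 0.13 (adjusted p = 0.11). The alpha-galactosidase A gene gla had 0.26, -0.24 and -0.27, and the acid ceramidase genes asah1a and asah1b had 0.12, -0.28 and -0.26, and -0.06, 0.20 and 0.19. Replicate 1 had the other sign from replicates 2 and 3 in all 3 genes. Without replicate 1 they were called, gla at -0.26 (adjusted p = 0.014), asah1a at -0.27 (adjusted p = 0.011) and asah1b at 0.19 (adjusted p = 0.048). Sgsh, which takes sulfate from heparan sulfate, had -0.13 ± 0.08 and was not called.

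Of the 9 lysosomal membrane protein genes 1 was called in each direction, 11.1% on each side and near the 11.1% and 8.16% of all named genes. Lamp1a encodes a heavily glycosylated protein of the limiting membrane and gave -0.27, -0.37 and -0.27 (mean -0.31 ± 0.06, adjusted p = 0.0055). Without replicate 2 it had -0.27 and lost its call (adjusted p = 0.06). Its paralog lamp1b was above 0 on every array (0.07, 0.26 and 0.14), with a mean of 0.16 ± 0.09 that missed the threshold (adjusted p = 0.096) and passed it without replicate 1 (0.20, adjusted p = 0.048). Laptm4a, a small transmembrane protein of late endosomes and lysosomes, gave 0.50, 0.12 and 0.26 (mean 0.30 ± 0.19, adjusted p = 0.027), and without replicate 1 had 0.19 (adjusted p = 0.059).

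The other 6 membrane protein genes had means between -0.12 and 0.09 and were not called. They included lamp2 (-0.08 ± 0.06), the cholesterol exporter npc1 (-0.03 ± 0.07), cln3 (0.07 ± 0.08) and the cation channel genes mcoln1a (0.04 ± 0.08) and mcoln1b (-0.12 ± 0.14). Of 4 genes of lysosomal proteases and granulins, limma called 0, where 11.1% and 8.16% of all named genes were called on the slc2a10 and opposite side. An unadjusted p under 0.05 was reached there by 0 and 1 of the 4, and by 17.4% and 14.0% of all named genes. The legumain gene lgmn had -0.13 ± 0.12, the tripeptidyl peptidase gene tpp1 -0.13 ± 0.03, and the granulin precursor genes grna and grnb -0.06 ± 0.09 and 0.02 ± 0.09.

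**Figure D3:**
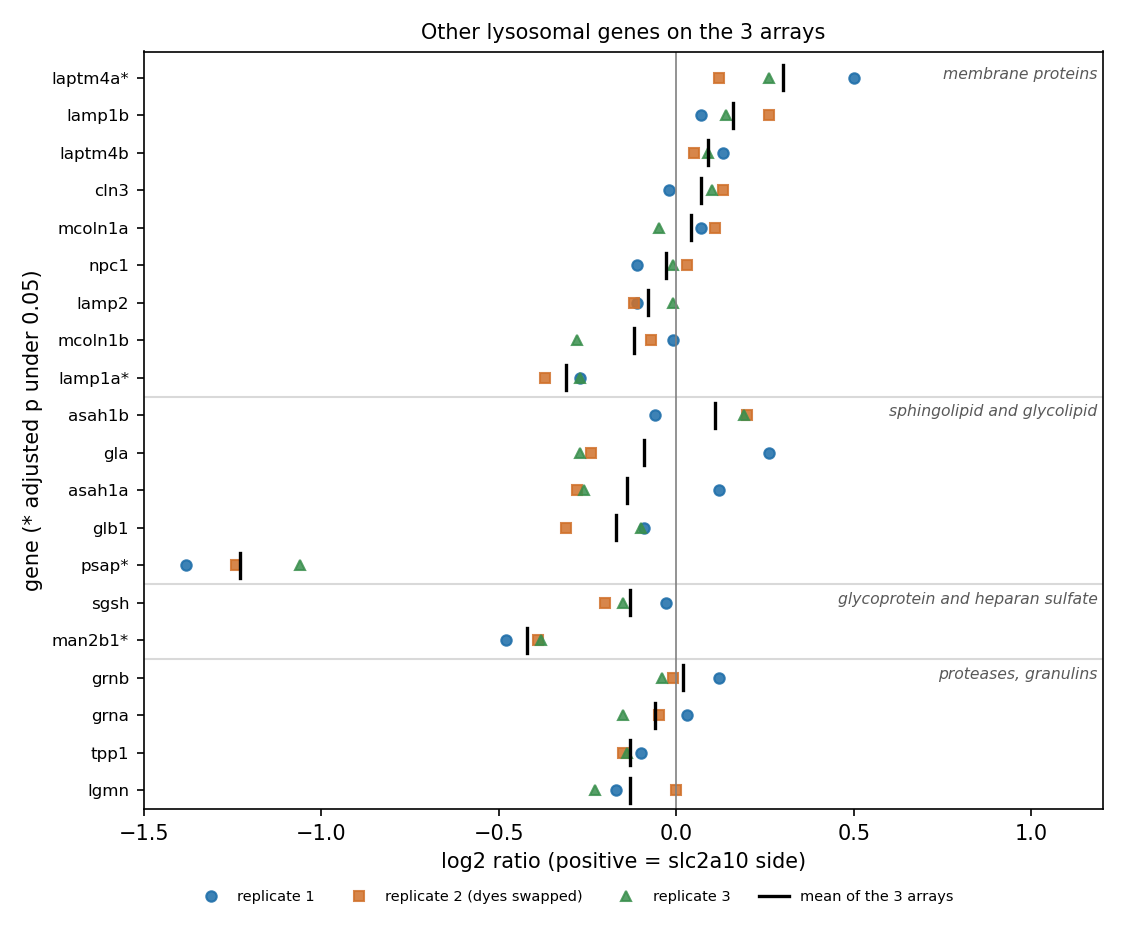
Log2 ratio of each lysosomal gene outside the pump on each of the 3 arrays (points), grouped by role, with the mean as a black bar and an asterisk on called genes. Psap lies below -1 on every array, while gla, asah1a and asah1b have replicate 1 on the other side of 0 from replicates 2 and 3.

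Of 10 paralog pairs, 5 had means of opposite sign, and in 4 pairs only 1 of the 2 genes was called. Of all named genes, 8147 had means above 0 and 7401 below, so genes paired at random would also often differ in sign. Of all named genes 19.3% were called. The widest gap was between the genes of the proton ring, atp6v0ca and atp6v0cb, with differences of -0.98, -0.85 and -0.59 (mean -0.81 ± 0.20). Lamp1a and lamp1b differed by -0.35, -0.63 and -0.42 (mean -0.46 ± 0.15), and atp6v1aa and atp6v1ab by 0.32, 0.49 and 0.29 (mean 0.36 ± 0.11). In these 3 pairs the difference had 1 sign on all arrays. So it had for laptm4a and laptm4b (0.37, 0.08 and 0.17), of which only laptm4a was called. The same held for grna and grnb (-0.10, -0.03 and -0.12) and for mcoln1a and mcoln1b (0.08, 0.18 and 0.23). Apart from the atp6v0c and lamp1 pairs, the pairs of opposite sign held no called gene: asah1a and asah1b, grna and grnb, and mcoln1a and mcoln1b. No difference between paralogs was tested, and near-identical paralogs can share signal on a probe.

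Single probes were also tested. Of 38 pump probes, 19 passed on the slc2a10 side and 1 opposite in a fit over all 43603 probes, where 6.18% and 5.49% of all probes were called. These shares include 19886 unnamed probes, while every member probe is named. Of the 23717 named probes, 3912 were called on either side in that fit. Of 30 probes of the other lysosomal genes, 1 was called on the slc2a10 side and 5 opposite. These 5 included all 3 probes of psap, and the rest were the single probes of man2b1 and lamp1a. Of 20 member genes with several probes, 15 had probes of 1 sign. In 3 called genes 1 of 2 probes missed the threshold: atp6v0a1a (0.18, adjusted p = 0.12), atp6v0d1 (0.21, adjusted p = 0.093) and atp6v1h (0.23, adjusted p = 0.052). Atp6v1d, on 1 probe, missed it in the fit over all probes (0.21, adjusted p = 0.053). The 5 whose probes differed in sign were atp6ap1b, lamp2, npc1, grna and grnb, none of them called as a gene. Singly, 1 of 2 probes was called in atp6ap1b (0.31, limma adjusted p = 0.018) and in atp6v1c1b (0.22, limma adjusted p = 0.039), both genes not called on their average.

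**Figure D4:**
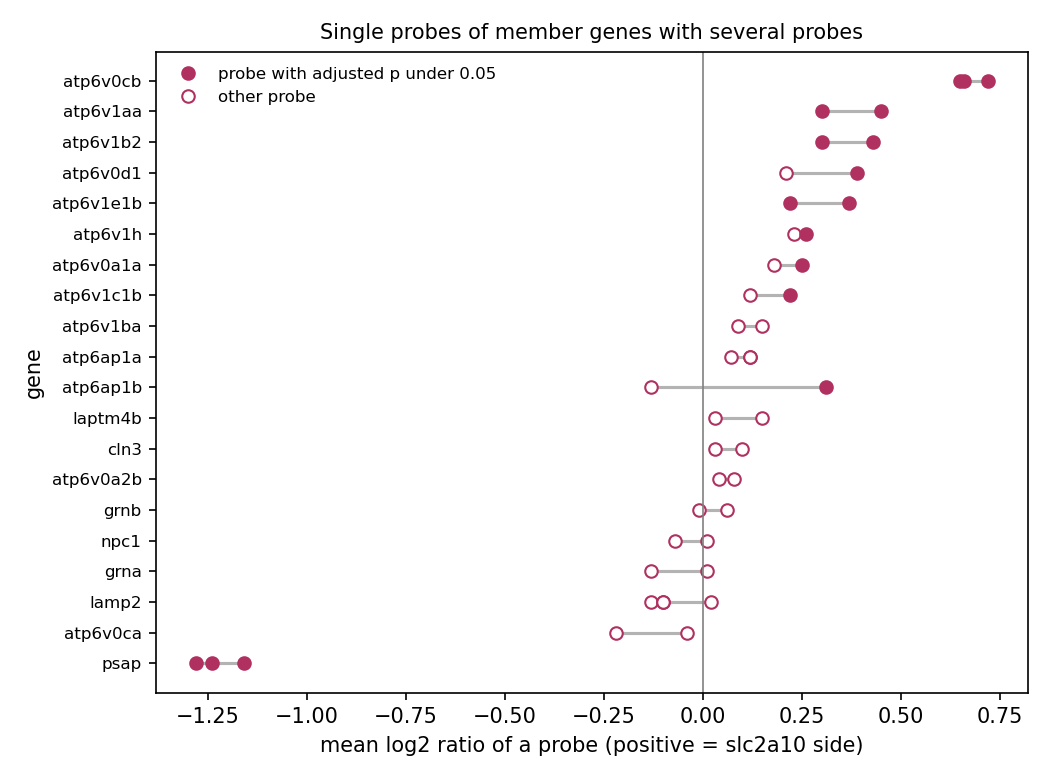
Mean log2 ratio over the 3 arrays of each probe (circles, filled where the probe's adjusted p is under 0.05) for the 20 member genes with several probes, joined by a line per gene. The probes of psap (-1.28 to -1.16) and atp6v0cb (0.65 to 0.72) lie close together, and those of atp6ap1b lie on both sides of 0.

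Pump genes that the symbol rule did not take were set beside the members. Beside atpv0e2, limma called 3 of 7 measured subunit and assembly genes, where 19.3% of all named genes were called. On the slc2a10 side were rnasekb (0.59, 0.59 and 0.43, mean 0.53 ± 0.09), whose human counterpart copurifies with the pump, and rogdi (0.39, 0.45 and 0.56, mean 0.47 ± 0.09), whose product belongs to the complex that reassembles V1 and V0. Tcirg1b was opposite with -0.34, -0.71 and -0.64 (mean -0.57 ± 0.20, adjusted p = 0.0018). It encodes a subunit a of the a3 type, which in mammals serves osteoclasts and lysosomes. Within subunit a, therefore, atp6v0a1a and atp6v0a1b lay on one side of 0 on every array and tcirg1b on the other, while its paralog tcirg1a had 0.04 ± 0.08, a gene named after its value was seen.

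Genes listed as lysosomal outside the rule were mostly negative too. Among 59 hydrolase and membrane protein genes, calls numbered 4 on the slc2a10 side (6.78%) and 12 opposite (20.3%), with 41 means below 0 and a median of -0.08. The list is broad and also held gba2, gba3, asah2, neu3.1, sumf1, sumf2, cln6a, cln6b and cln8, whose products act outside the lysosome. Most of these had means below 0, and none was called. Of all 15548 named genes 11.1% and 8.16% were called, and 7401 means were below 0. Without replicate 2 the counts were 3 and 5, where 6.31% and 3.70% of all named genes were called. Without replicate 1 they were 5 and 17 (10.6% and 10.1% of all named genes), and without replicate 3 they were 3 and 9 (9.70% and 6.55%). The largest on the opposite side were the sialidase gene neu1 (-0.61 ± 0.20), dpp7 (-0.59 ± 0.21), the fucosidase gene fuca1.1 (-0.51 ± 0.07) and the GM2 activator gene gm2a (-0.51 ± 0.34). On the slc2a10 side were the sialic acid exporter gene slc17a5 (0.69 ± 0.08), epdr1 (0.34 ± 0.06), the lysosomal phospholipase gene pla2g15 (0.32 ± 0.15) and mfsd8 (0.20 ± 0.02). Mfsd8 lost its call without replicate 2 (0.19, adjusted p = 0.21) and without replicate 3 (0.19, adjusted p = 0.087).

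Of 7 genes whose symbols are paralog forms of the unmatched rule names, grouped with the values in view, 2 passed, both opposite: gnsa (-0.40 ± 0.10), for a heparan sulfate sulfatase, and the cholesterol binding protein gene npc2.1 (-0.21 ± 0.03). Npc2.1 was not called without replicate 2 (-0.21, adjusted p = 0.15) or replicate 3 (-0.20, adjusted p = 0.079). The cathepsins, the main lysosomal proteases, had 6 of 15 genes called opposite and 2 on the slc2a10 side. Of all named genes 8.16% and 11.1% were called on these sides. The cathepsin S gene ctss2.1 (-2.60 ± 0.30) was the lowest of all 15548 genes, and ctsh (-1.24 ± 0.16), ctsla (-0.75 ± 0.08) and ctsd (-0.44 ± 0.19) followed. On the slc2a10 side were ctsll (0.47 ± 0.28) and ctsz (0.23 ± 0.12), the last not called without replicate 1 (0.16, adjusted p = 0.085) or replicate 2 (0.27, adjusted p = 0.075).

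**Figure D5:**
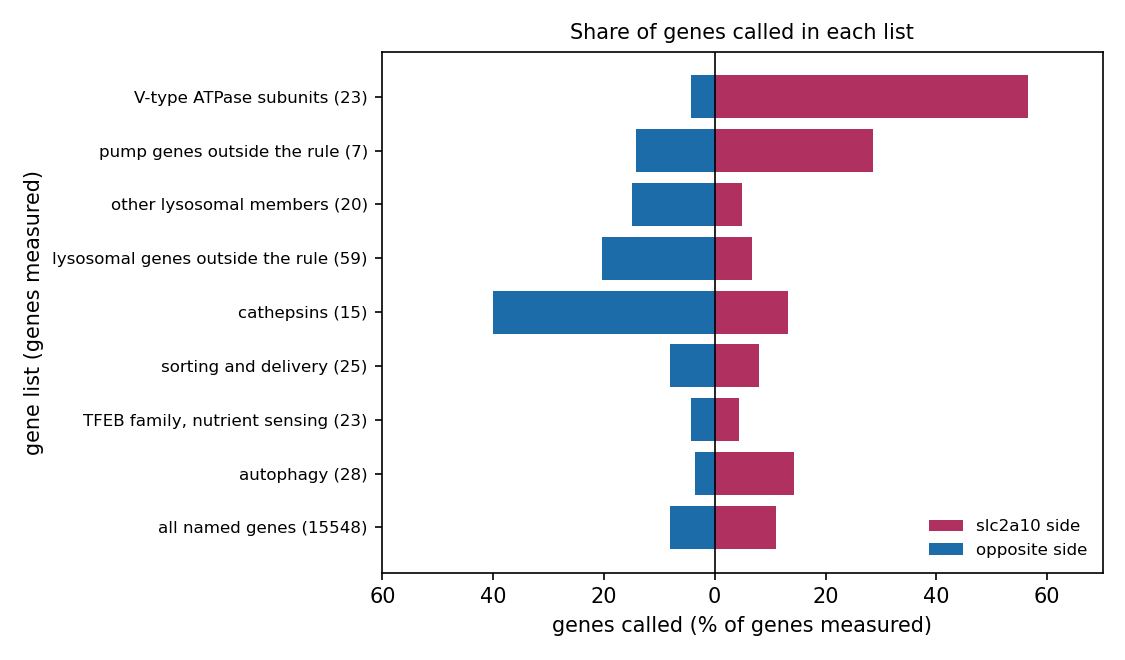
Share of measured genes called on the slc2a10 side (bars to the right) and on the opposite side (bars to the left), in percent, for the pump, the other lysosomal members, 6 related gene lists and all named genes, with the number measured in brackets. Pump genes reach 56.5% on the slc2a10 side and cathepsins 40% on the opposite side, against 11.1% and 8.16% of all named genes.

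Transport, sensing and autophagy lists lay near the background of 11.1% of named genes called on the slc2a10 side and 8.16% opposite. Of 25 genes of mannose 6-phosphate sorting and vesicle delivery, 2 were called on each side. The small GTPase gene rab7b had -0.48 ± 0.08 and the adaptor gene ap3b1a -0.26 ± 0.16, and opposite to them were ap3s2 (0.29 ± 0.18) and vps16 (0.20 ± 0.07). Both genes on the slc2a10 side lost their call without replicate 1 (adjusted p = 0.053 and 0.066), and ap3b1a did so without replicate 2 (-0.22, adjusted p = 0.18) and replicate 3 (-0.21, adjusted p = 0.12), as did vps16 without replicate 2 (adjusted p = 0.26).

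Of 23 genes listed for the TFEB family, which switches on lysosomal genes, and for nutrient sensing at the lysosome, 1 was called on each side: rheb (0.32 ± 0.20), an activator of the growth kinase mTORC1, and rragcb (-0.41 ± 0.11), a GTPase that brings mTORC1 to the lysosome. Tfeb itself was not measured under that symbol. Its relatives tfe3a (-0.04 ± 0.02), tfe3b (0.04 ± 0.17), tfec (-0.01 ± 0.10), mitfa (0.05 ± 0.00) and mitfb (0.10 ± 0.09) were not called. The list also held usf1, usf1l, max, mlx and mlxip, which belong to neither group and were not called. Autophagy genes had 4 calls on the slc2a10 side and 1 opposite, of 28 measured. The cargo receptor gene sqstm1 had -0.23 ± 0.04, and atg12 (0.22 ± 0.14), atg3 (0.21 ± 0.09), atg5 (0.19 ± 0.10) and map1lc3a (0.19 ± 0.06) belong to the conjugation of LC3 to membranes. Each of these 5 lost its call without replicate 2 (adjusted p between 0.085 and 0.18) and without replicate 3 (adjusted p between 0.055 and 0.21). Without replicate 2 limma made 1 call in this list, of a gene not called with all arrays.

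Markers of cells rich in lysosomes or pumps were read beside these values, as ratios without levels. The background was 11.1% of all named genes called on the slc2a10 side and 8.16% opposite. Of 18 macrophage and microglia markers 3 were called opposite and 0 on the slc2a10 side (4 and 0 at an unadjusted p under 0.05), with list medians of -0.03, 0.02 and -0.10 on replicates 1, 2 and 3. They were apoeb (-0.90 ± 0.10), coro1a (-0.40 ± 0.26) and lcp1 (-0.31 ± 0.12), the last not called without replicate 2 (-0.24, adjusted p = 0.1). The defining markers mpeg1.1 (0.09 ± 0.25) and csf1ra (0.05 ± 0.06), named after their values were seen, were not called. Of 10 neutrophil markers 6 were called opposite and 0 on the slc2a10 side (7 and 0 at an unadjusted p under 0.05), with list medians of -0.36, -0.42 and -0.31. The 4 largest were mmp9 (-0.84 ± 0.43), cebp1 (-0.83 ± 0.25), lyz (-0.70 ± 0.27) and mpx (-0.59 ± 0.22). Not called were cebpa (-0.15 ± 0.13), cxcr1 (-0.01 ± 0.13), cxcr2 (0.07 ± 0.07) and nccrp1 (0.08 ± 0.12), named after their values were seen. Of 4 measured genes of the osteoclast list 3 were called opposite, tcirg1b, acp5a (-0.30 ± 0.06) and clcn7 (-0.21 ± 0.04), and these also stand in the pump or lysosomal lists. Ocstamp (-0.12 ± 0.10) was not called, and the listed ctsk, dcstamp and tnfrsf11a were not measured. Whether these embryos held osteoclasts at 48 hours post fertilization was not examined. Without replicate 2 acp5a (-0.29, adjusted p = 0.051) and clcn7 (-0.21, adjusted p = 0.16) were not called, and clcn7 was not called without replicate 1 or 3 either (adjusted p = 0.058 and 0.054). The part of these cells in the values of psap and the other lysosomal genes was not tested.

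On the slc2a10 side, 4 of 18 ionocyte markers were called and 1 opposite, with list medians of 0.11, 0.04 and 0.08. The shares of all named genes were 11.1% and 8.16%. The carbonic anhydrase genes cahz (0.67 ± 0.13), which red blood cells also express, and ca2 (0.49 ± 0.12) were joined by the ammonia transporter genes rhbg (0.29 ± 0.17) and rhcga (0.20 ± 0.06), and the sodium pump gene atp1b1b was opposite (-0.44 ± 0.15). Rhcga lost its call without each replicate in turn (adjusted p between 0.073 and 0.11). The other 13 ionocyte markers were not called. They included foxi3b (-0.10 ± 0.25), slc4a1b (0.00 ± 0.10), gcm2 (0.03 ± 0.16), rhcgb (0.05 ± 0.11) and ca15a (0.30 ± 0.31), named after their values were seen. Notochord markers had 2 of 17 called with slc2a10, matn4 (0.26 ± 0.18) and entpd5a (0.25 ± 0.09), and 1 opposite, cavin1a (-0.19 ± 0.08), with list medians of 0.02, -0.07 and -0.05. Without replicate 2 limma called 0 of them on either side, with entpd5a at 0.27 (adjusted p = 0.081), matn4 at 0.25 (adjusted p = 0.16) and cavin1a at -0.14 (adjusted p = 0.38), and without replicate 1 matn4 and cavin1a were not called (adjusted p = 0.1 and 0.057).

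For the remaining lists too, the background was 11.1% of all named genes called on the slc2a10 side and 8.16% opposite. Pigment cell genes had 6 of 17 called, each with slc2a10, led by the melanosome genes pmelb (0.76 ± 0.19), tyrp1b (0.52 ± 0.29) and pmela (0.38 ± 0.28) and by pnp4a (0.36 ± 0.08). None was called opposite by limma (0 at an unadjusted p under 0.05). The other 11 were not called, among them tyr (-0.04 ± 0.15), mitfa (0.05 ± 0.00), slc24a5 (0.07 ± 0.10) and dct (0.07 ± 0.23), named after their values were seen. In a list of 26 synaptic vesicle and release genes, added with the pump values in view, 12 were called with slc2a10 and 1 opposite, with list medians of 0.23, 0.12 and 0.21. They were led by syt5b (1.09 ± 0.15), snap25b (0.88 ± 0.16), sypb (0.73 ± 0.11) and nsfa (0.63 ± 0.19), and slc17a7b was opposite (-0.30 ± 0.04, not called without replicate 2, adjusted p = 0.06). The other 13 were not called, among them slc17a6a (-0.11 ± 0.37), nsfb (-0.09 ± 0.09), syt5a (0.00 ± 0.04), syt1b (0.01 ± 0.16) and slc32a1 (0.21 ± 0.18), named after their values were seen. Yolk and liver lipoprotein genes had 4 and 2 calls on the slc2a10 and opposite side, of 10. Fabp10a (1.92 ± 0.13), tfa (1.09 ± 0.10), apoc2 (0.41 ± 0.17) and apoa1a (0.26 ± 0.17) stood against apoa4b.1 (-0.35 ± 0.12) and apobb.1 (-0.28 ± 0.12). Apoa1a was not called without replicate 1 (0.25, adjusted p = 0.058) or replicate 3 (0.18, adjusted p = 0.16), and apobb.1 not without replicate 2 (-0.31, adjusted p = 0.051). The part of neurons, ionocytes or pigment cells in the pump values was not tested.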

How the data were processed

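The authors deposited 1 log2 ratio for each probe on each array; the log base is read from the range of the values (largest size 4.85), and as natural logs all log2 sizes would be understated. Per the submitters' processing notes, Partek was used. Its version and role, the background correction, the normalization and the ratio's numerator channel were not given in the sources used here. Column medians were -0.0016, -0.0076 and -0.0045. Scanner files were not used here, so signal above background and saturation are unknown, and precision is limited by the number of arrays.

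From these values, 45 control spots were left out, 43603 probes kept, replicate 2 turned because it correlated below 0 with both others, and all signs set so that slc2a10 is positive. Symbols came from GEO's platform annotation, updated through the RefSeq gene table of GRCz12tu (23534 probes by Entrez ID, 42 by accession, 141 kept); no member symbol changed, and 19886 probes are unnamed here. Each gene is the average of its probes. Limma 3.58.1 in R 4.3.3 (lmFit, eBayes) tested each mean against 0 over 15548 genes with Benjamini-Hochberg adjustment, after a run on simulated data. The control pool counts as 1 control sample. No source says whether the 3 replicates came from separate clutches, so p-values measure the spread between these samples only.

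The members and gene lists were chosen with earlier results of these data known. Genes named are slc2a10, all called members, the 4 uncalled members with the largest means, members whose probes or paralogs differ in sign, and up to 4 called genes per side of each other list. Other uncalled members, and some uncalled genes of the other lists named after their values were seen, are also given. Alternatives were each replicate left out, replicate 2 unturned, a dye term, robust eBayes, an ordinary t statistic, array weights, 2 scalings, single probes, a 1.5-fold minimum and, added after the data were seen, 7 paralog symbols and atpv0e2, a subunit e gene, added to the members. Promoter and protein sequences were not used here.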

Additional observations from a re-analysis of the deposited data

How the results depend on the processing

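Leaving out 1 replicate gave 1556 to 3211 called named genes (2996 with all arrays), 8 to 13 members on the slc2a10 side (14) and 3 to 6 opposite (4). The lowest counts, 1556, 8 and 3, came without replicate 2, where 6.31% and 3.70% of all named genes were called on the slc2a10 and opposite side. Of the 18 called members 10, 7 on the slc2a10 side and 3 opposite, kept their call without each replicate in turn. The matching count over all 2996 called named genes is not given here, so 10 of 18 cannot be read against a background. With replicate 2 left as deposited, limma called 0 named genes and 0 members on either side (28 and 0 at an unadjusted p under 0.05), slc2a10 was 0.18 (adjusted p = 1), and the medians were 0.083 for the pump and -0.022 for the other lysosomal genes. The ordinary t statistic called 2 named genes and 0 members on either side (3262 and 16 at an unadjusted p under 0.05), with slc2a10 at 0.46 (adjusted p = 0.14). So the calls rest on turning replicate 2 and on limma's shared estimate of the spread. Array weights gave 5211 named genes and 8 members opposite. A minimum of 1.5-fold left 297 named genes and 1 member on each side. A dye term gave 11 and 4 members, without atp6ap2, atp6v0a1a and atp6v1d. Both scalings and robust eBayes left all 18 members called. With 7 paralog symbols added, 14 and 6 genes were called, and with atpv0e2 added 15 and 4. With each gene read from 1 probe, the lower by mean where it had 2, atp6v0a1a, atp6v0d1, atp6v1d and atp6v1h were not called. The higher probe of atp6v0a1a (limma adjusted p = 0.036), atp6v0d1 (adjusted p = 0.0049) and atp6v1h (adjusted p = 0.032) was called. Atp6v1d had 1 probe.

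Over all 43 members, sign changes were limited to genes that were not called. With replicate 2 as deposited these were asah1a (0.045), asah1b (-0.025), atp6v1c2 (-0.012), cln3 (-0.02), gla (0.074), glb1 (0.043), lamp1b (-0.014), lamp2 (0.00072), mcoln1a (-0.032) and sgsh (0.0028). With 1 replicate left out, atp6v1ab ranged from -0.043 to 0.069, gla from -0.26 to 0.0085, grnb from -0.025 to 0.055 and npc1 from -0.059 to 0.0086. Others were, with a dye term atp6v1ab (-0.021), and with array weights atp6v1ab (-0.059) and npc1 (0.0033). Read from the lower of their 2 probes, atp6ap1b (-0.13) and grnb (-0.0085) changed sign too. Their cause was not tested. No paired analysis was possible because the only control sample is 1 pool shared by all arrays.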
